A study of Mus musculus with 36 samples.

Results

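The blood and immune cell genes described here are 46 mouse genes that act in hematopoiesis or mark leukocytes, of 49943 genes of the RefSeq annotation of GRCm38 in which DNA lesions were counted. The rule that chose them uses names and roles and no lesion counts, although earlier results of these data were known. They fall into 6 role lists: 10 genes of pan-leukocyte signalling and adhesion, 8 receptors and regulators of progenitors, 6 regulators and receptors of myeloid cells, 7 granule and antimicrobial proteins, 6 genes of the B lineage and 9 of the T lineage. Of the 46 genes, 16 span at least 100 kb and are called long below, and 30 are shorter.

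Blood cells arise from stem cells in the bone marrow through progenitors that carry receptors such as KIT and FLT3. Transcription factors then commit them to a lineage, among them PU.1 (the product of Spi1) and the C/EBP factors for myeloid cells, EBF1 and PAX5 for B cells, and BCL11B and TCF7 for T cells. Single-strand breaks (SSBs) and abasic sites (AP sites, nucleotides that have lost their base) are common DNA lesions. Both are repaired largely through the base excision and single-strand break repair pathways.

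The samples came from 2 male C57BL/6J mice at 24 months of age, untreated as far as the labels state, with 2 replicates per tissue and assay. SSBs were mapped with SSiNGLe and AP sites with SSiNGLe-AP, each in bone marrow after lysis of red cells, in peripheral blood mononuclear cells (PBMCs, isolated on Ficoll), and in brain, heart, liver and motile sperm, which gave 24 libraries. Bone marrow and PBMCs, 4 libraries per assay, are called blood below, and the other 4 tissues gave 8 libraries per assay. PBMCs contain lymphocytes and monocytes and exclude most granulocytes, while bone marrow also contains progenitors and granulocyte precursors. The RNA samples of the same tissues were not analysed here, so the blood label of the 46 genes was not checked against expression. In such bulk samples, fewer cells of a type and fewer lesions per cell cannot be told apart.

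Libraries held 225011 to 1041983 SSB positions and 460719 to 963258 AP positions. A gene's density is given as LPKM, lesion positions per kb of gene in a library scaled to 1000000 positions, so it measures where lesions lie and not how many a genome carries. Positions spread evenly would give 0.367 LPKM. The counts behind a gene set its precision: a long member held 270 to 2351 SSB positions over the 12 libraries and a short one 6 to 500.

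Lesion density in the blood genes exceeded that of genes in general in every tissue, including tissues without leukocytes as their main cells. Long members together had 0.580 ± 0.018 SSB LPKM in blood (SD, n = 4) and 0.572 ± 0.016 in the other tissues (SD, n = 8), against 0.441 ± 0.012 and 0.448 ± 0.005 in all 2742 long genes. Short members had 0.786 ± 0.064 and 0.676 ± 0.049, against 0.570 ± 0.033 and 0.541 ± 0.016 in all 47201 short genes. AP sites gave 0.604 ± 0.011 in blood and 0.606 ± 0.018 elsewhere in long members, and 0.709 ± 0.061 and 0.702 ± 0.033 in short ones. No library of the 24 had a member density below that of all genes of the same length class, in long or in short genes. Against short protein-coding genes, the SSB density of short members was 1.28 times as high in blood and 1.18 times elsewhere, with 1.06 in the lowest library. The excess is not particular to blood genes. Short hepatocyte genes in liver and short cardiac muscle genes in heart, given below, were denser in SSBs than the short members there. These levels are descriptions, since members share libraries and no test was run over the set.

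The elevated density lay in the genes themselves more than in their surroundings. Of the long members, 15 of 16 had a mean SSB LPKM above that of the 100 kb on either side, with a median ratio of 1.29. The exception was Dock2, a guanine nucleotide exchange factor for Rac that lymphocytes need to migrate, with a ratio of 0.841. Of the short members, 25 of 30 lay above their flanks, with a median ratio of 1.32. Gfi1, a repressor required for granulocyte maturation, stood 3.20 times above its flanks, and Ikzf3, which encodes the lymphoid factor Aiolos, stood at 0.678. For AP sites the counts were 15 of 16 and 26 of 30. The share of all genes above their flanks was not computed. Pooled, short genes at large had 0.504 to 0.732 SSB LPKM in 10% bins of the gene. Their flanks had 0.489 to 0.516 in 25 kb bins, which overlaps the lower gene bins. All long genes had 0.415 to 0.535 and 0.405 to 0.487.

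Density also varied between members. Among long members, mean SSB LPKM ran from 0.247 in Themis, a T cell selection gene, to 0.822 in Ets1, a transcription factor of lymphocytes. AP density put the same genes at the ends, with 0.260 and 0.828. Among short members, Itgam, the integrin alpha chain of the myeloid receptor Mac-1, was lowest at 0.376 SSB and 0.294 AP LPKM. The top short gene was S100a8, a calprotectin subunit of 964 bp with only 6 SSB and 12 AP positions in all libraries. Across the 16 long members, mean SSB and AP densities had a Pearson correlation of 0.980 and a Spearman correlation of 0.991. Across the 30 short members these were 0.796 and 0.746. The points share gene spans, base composition and tissue samples, and the correlations are given without a test.

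**Figure D1:**
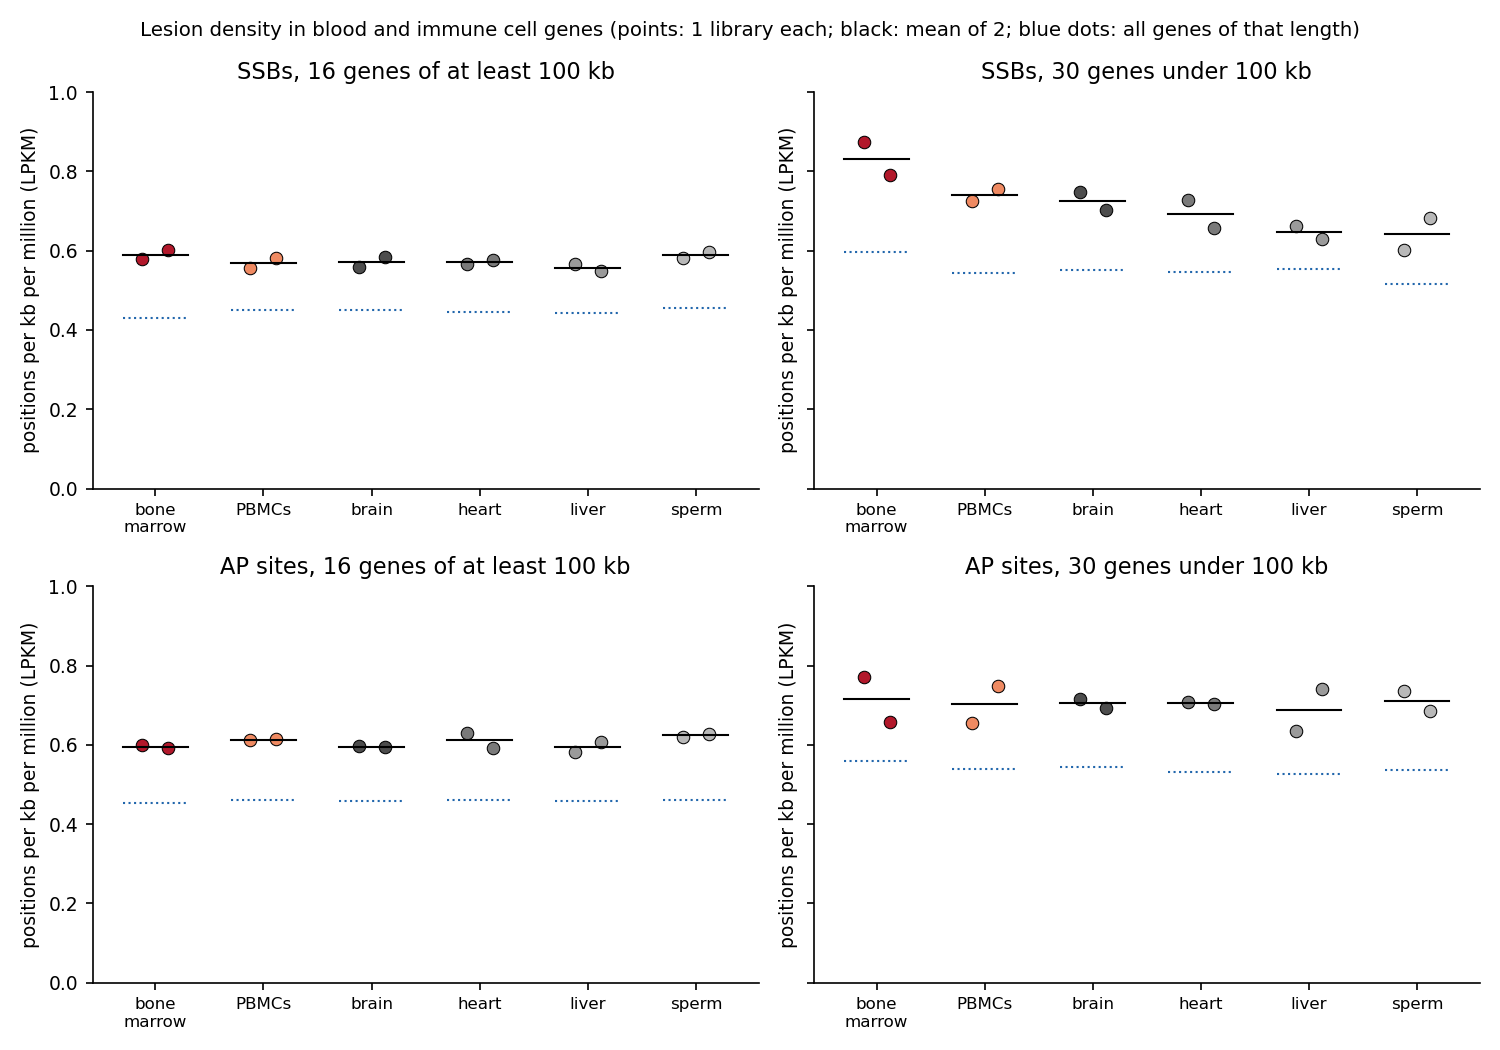
Density of SSBs (top) and AP sites (bottom) in the 16 long (left) and 30 short (right) blood and immune cell genes, in LPKM. Each point is 1 library, black lines are means of 2 libraries, and blue dotted lines are the mean of all genes of that length. Short members in SSBs run from 0.831 in bone marrow to 0.641 in sperm, and the other panels are nearly level across tissues.

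For SSBs in long members, blood and the other tissues were nearly equal. The 4 blood libraries had 0.578, 0.602, 0.557 and 0.582 LPKM, and the 8 others lay between 0.547 and 0.597. The ratio of the means was 1.01, against 0.984 in all long genes. Divided by the density of all long genes in the same library, the members stood at 1.32 ± 0.064 in blood (SD, n = 4) and 1.28 ± 0.027 elsewhere (SD, n = 8). AP sites gave a ratio of blood to other tissues of 0.996 in long members and 0.993 in all long genes.

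For SSBs in short members, blood had the higher density. The bone marrow libraries had 0.873 and 0.790 LPKM and the PBMC libraries 0.725 and 0.755, and the 8 others lay between 0.601 and 0.749. The groups overlapped, since the lower PBMC library lay below the highest brain and heart libraries. By tissue the order was bone marrow at 0.831 ± 0.059, PBMCs at 0.740 ± 0.021, brain at 0.725 ± 0.034, heart at 0.692 ± 0.049, liver at 0.646 ± 0.024 and sperm at 0.641 ± 0.058 (SD, n = 2 each). Neighbours in that order differed by less than the larger of their SDs, apart from bone marrow and PBMCs.

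The ratio of blood to other tissues was 1.16 in short members, 1.05 in all short genes and 1.07 in short protein-coding genes. Within libraries, the short members stood at 1.38 ± 0.049 times the density of all short genes in blood and 1.25 ± 0.084 times elsewhere, with ranges of 1.32 to 1.43 and 1.13 to 1.36 that overlapped. The flanks moved in the same direction: when the members' density was divided by that of their flanks, the ratio of blood to other tissues was 1.04. Not divided by the flanks, the ratio of blood to other tissues was 1.09 without bone marrow and 1.23 without PBMCs. In 66 other blood and immune genes, the 49 short ones had a ratio of 1.13. The 22 short hepatocyte genes had 1.01 and their highest mean in liver, at 0.919 LPKM, and the 21 short cardiac muscle genes had 1.05 and their highest mean in heart, at 0.865. AP sites showed no such order, with a ratio of 1.01 in short members and tissue means between 0.688 in liver and 0.715 in bone marrow.

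Gene by gene, no blood gene passed the test in any comparison. edgeR's quasi-likelihood test was used with Benjamini-Hochberg adjustment over all genes, at an adjusted threshold of 0.05. For SSBs in blood against the other tissues it called 0 of 46 members. The share called among all genes tested was 0.117%, all of them lower in blood. Those called were 44 of 2738 long genes and 1 of 35748 short ones. For AP sites in blood the test called 0 members, where 0% of 41374 genes were called. For bone marrow against PBMCs it called 0 members in SSBs, where 0.0026% of genes were called, and 0 in AP sites, where 0% were. The test of whether the blood difference of SSBs differs from that of AP sites also called 0 members, with 0% of 37821 genes called. DESeq2 also called 0 members in all 5 tests. At an unadjusted p under 0.05, edgeR gave 3 members with higher and 1 with lower SSB density in blood, against 1.58% and 3.95% of all genes. The 3 were short and the 1 long, and these shares differed by length. Of 35748 short genes tested, 581 were higher and 927 lower, and of 2738 long ones, 29 were higher and 592 lower. No member had blood libraries that all lay above or all below the other 8, in SSBs or AP sites, while 0.611% and 0.305% of all genes tested did.

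The scaling used in that test (TMM) placed the median log2 difference of all genes at -0.11, against 0.01 when only library totals were used. Log2 differences below are therefore given minus the median of all genes tested, while p-values are those of the unshifted differences that the test evaluates. A fitted difference depends on the prior count where a whole tissue is at 0, as for SSBs in 6 short members (Cebpa, Mpo, Camp, Ngp, S100a8 and Cd79a), and these are left out of the counts that follow. On that scale 16 of 24 short members and 6 of 16 long members lay above the median of all genes for SSBs. Of all genes tested, 18074 of 35748 short and 1169 of 2738 long ones did, genes with a tissue at 0 included. The split of the genes called also depended on the scaling, with 0 higher and 45 lower by TMM, and 1 higher and 4 lower by library totals. For AP sites, 12 of 28 short and 5 of 16 long members lay above the median, without Cebpa and Ngp. Of all genes tested for AP sites, 19827 of 38636 short and 860 of 2738 long ones did, so long genes at large lay mostly below the median in both assays.

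**Figure D2:**
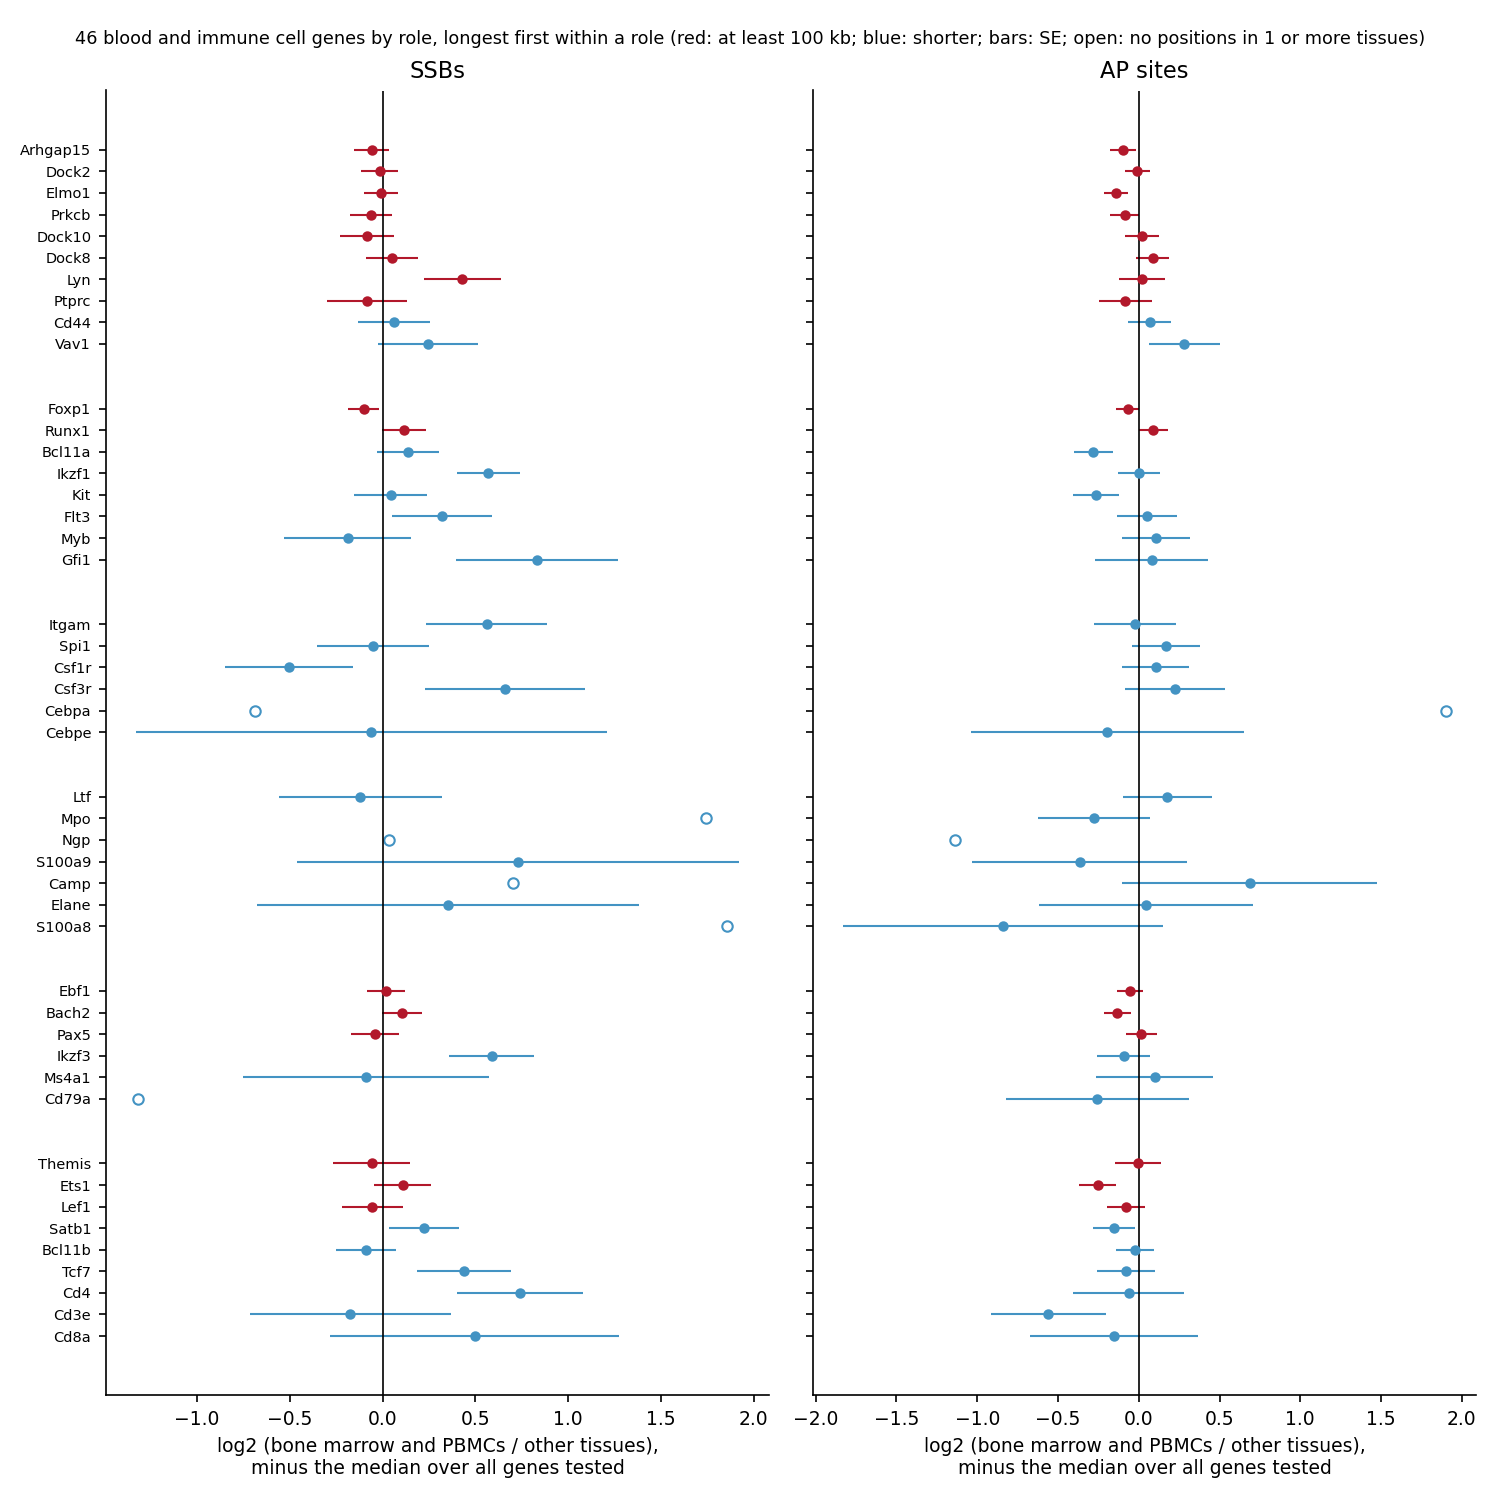
Log2 ratio of blood to the other tissues for each of the 46 genes, minus the median of all genes tested, for SSBs (left) and AP sites (right), grouped by role with the longest gene first. Bars are standard errors derived from edgeR's F statistic, and open symbols without bars mark genes with no position in 1 or more tissues. Among the 16 long genes Lyn lies farthest from 0, at 0.43 for SSBs.

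Pan-leukocyte signalling and adhesion genes had 0.518 ± 0.024 SSB LPKM in blood (SD, n = 4) and 0.513 ± 0.021 elsewhere (SD, n = 8), and 4 of 10 lay above the median of all genes. Arhgap15 (chr2:43748798-44395953), a GTPase-activating protein for Rac and the longest member at 647156 bp, had 0.411 and 0.426 LPKM in bone marrow and 0.371 and 0.541 in PBMCs. Its 8 other libraries ran from 0.381 to 0.582 with a median of 0.434. Sperm gave both of the highest values of Arhgap15, and 3 of its 4 blood libraries lay within the range of the rest, the fourth just below. Its log2 difference was -0.06 with an SE of 0.10 (edgeR, adjusted p = 0.925 for the unshifted -0.17), and unshifted it ran from -0.36 without PBMC replicate 2 to -0.054 without PBMC replicate 1.

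Dock2 (chr11:34226815-34783905) had 0.450 and 0.510 LPKM in bone marrow and 0.455 and 0.458 in PBMCs, within the 0.406 to 0.508 of the other tissues but for 1 bone marrow library. Elmo1 (chr13:20090507-20608353), the partner of DOCK proteins in activating Rac and the list's gene with most SSBs, held 1800 SSB positions. It had 0.636 and 0.622 in bone marrow and 0.549 and 0.695 in PBMCs, with a median of 0.625 elsewhere. The PBMC libraries of Elmo1 thus bracket all 10 others. Lyn, a Src family kinase of B and myeloid cells, had the largest log2 difference among long members, at 0.43 with an SE of 0.21. This gene was singled out after its values were seen. Of its blood libraries 3, at 0.653, 0.672 and 0.744 LPKM, lay above the highest of the 8 others, at 0.522, and a PBMC library lay at 0.288.

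Progenitor receptors and regulators had 0.747 ± 0.042 SSB LPKM in blood and 0.723 ± 0.038 elsewhere, and 6 of 8 lay above the median of all genes. Foxp1 (chr6:98925342-99522746), a forkhead transcription factor that B cell development requires, held the most SSBs of the 46 genes, 2351 positions. Its values were 0.657 and 0.695 LPKM in bone marrow and 0.662 and 0.733 in PBMCs, with 0.696, 0.718 and 0.805 as the lowest, median and highest of the other tissues. Of the 4 blood libraries of Foxp1, 3 lay just below all 8 others. Relative to the median of all genes, its log2 difference was -0.10 with an SE of 0.08 (edgeR, unadjusted p = 0.0093 for the unshifted difference of -0.22, adjusted p = 0.648).

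Ikzf1 (chr11:11684962-11772930) encodes Ikaros, a zinc finger factor needed for lymphocyte development, and had the smallest p of the 46 genes for SSBs in blood against the other tissues. It had 1.19 and 0.771 LPKM in bone marrow and 0.758 and 1.26 in PBMCs, while the 8 others ran from 0.523 to 0.892 with a median of 0.724. All 4 blood libraries lay above that median, 2 of them above every other library. The log2 difference was 0.57 with an SE of 0.17 (edgeR, unadjusted p = 0.0080 for the unshifted difference of 0.46, adjusted p = 0.625). The unshifted difference of Ikzf1 was 0.20 without PBMC replicate 2 and 0.61 without PBMC replicate 1. The AP density of Ikzf1 gave -0.0008 with an SE of 0.13, and the difference between the assays had an adjusted p of 0.990 (edgeR). Gfi1, singled out after its values were seen, had 2.62 and 2.32 LPKM in bone marrow on 11 and 5 positions, 1.46 and 1.43 in PBMCs and at most 1.58 elsewhere.

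Myeloid regulators and receptors were the list, beside the granule genes, in which bone marrow and PBMCs lay farthest apart for SSBs. The 6 genes together had 1.04 and 0.783 LPKM in bone marrow and 0.537 and 0.441 in PBMCs, on 67, 26, 17 and 19 positions. The other tissues lay between 0.455 and 0.727, so that both bone marrow libraries stood above all others and PBMCs did not. Spi1 (chr2:91082374-91115759), which encodes the myeloid master regulator PU.1 and held the most SSBs of the list, had 1.63 and 1.02 LPKM in bone marrow against 0.532 and 0.490 in PBMCs. Its other libraries ran from 0.399 to 1.10. The log2 difference of bone marrow to PBMCs was 1.43 with an SE of 0.51 (edgeR, unadjusted p = 0.0046, adjusted p = 0.845).

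Csf1r, the receptor for macrophage colony-stimulating factor, had 1.28 and 0.994 LPKM in bone marrow and 0.695 and 0.256 in PBMCs, on 15, 6, 4 and 2 positions, and a median of 1.05 elsewhere. Its log2 difference of bone marrow to PBMCs was 1.36 with an SE of 0.63 (edgeR, adjusted p = 0.899). In that comparison the 5 myeloid members with SSBs in both tissues lay above the median of all genes, and 4 of 6 did for AP sites. Among members of all lists with positions in both tissues, 25 of 43 did for SSBs and 12 of 45 for AP sites. For AP sites the myeloid list had 0.693 LPKM in bone marrow and 0.594 in PBMCs.

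Granule and antimicrobial protein genes, which neutrophil precursors of the bone marrow express, showed the widest range between tissues for SSBs. The 7 genes together had 1.20 and 1.49 LPKM in bone marrow, 0.588 and 0.577 in PBMCs and 0.396 to 1.05 elsewhere. Bone marrow stood above all 10 other libraries, but on 25 and 16 positions, and PBMCs lay in the range of the other tissues. The granule and myeloid lists hold only short genes, and short genes at large also leaned to bone marrow. Of 35748 short genes tested for SSBs, 1026 were higher in bone marrow than in PBMCs and 476 lower at an unadjusted p under 0.05 (edgeR). Their median log2 difference was 0.014. In AP sites the list had 0.682 in bone marrow, 0.880 in PBMCs and 0.706 to 0.828 as means of the other tissues, so the SSB order was absent there. For SSBs in blood against the other tissues, 2 of the 3 granule genes and 2 of the 5 myeloid genes with positions in every tissue lay above the median of all genes.

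Mpo (chr11:87793784-87804412), myeloperoxidase, had 1.64 and 1.59 LPKM in bone marrow, on 8 and 4 positions, 1.25 and 0.615 in PBMCs, and up to 1.63 elsewhere, in brain. Neither sperm library held a position in Mpo, which allows up to 0.753 and 1.01 LPKM there at the limit of 3 counts (counting error only). The unadjusted p of Mpo was 0.0187 and the adjusted p 0.776 (edgeR), and since a tissue is at 0 its fitted fold change is not given. Ltf (chr9:111019292-111042766), lactoferrin, held the most SSBs of the list, 87 positions. It had 0.743 and 1.62 LPKM in bone marrow against 0.379 and 0.279 in PBMCs and 0.382 to 0.984 elsewhere. Its log2 difference of bone marrow to PBMCs was 1.63 with an SE of 0.74 (edgeR, adjusted p = 0.899), and 1 of the 2 bone marrow libraries carried most of it.

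**Figure D3:**
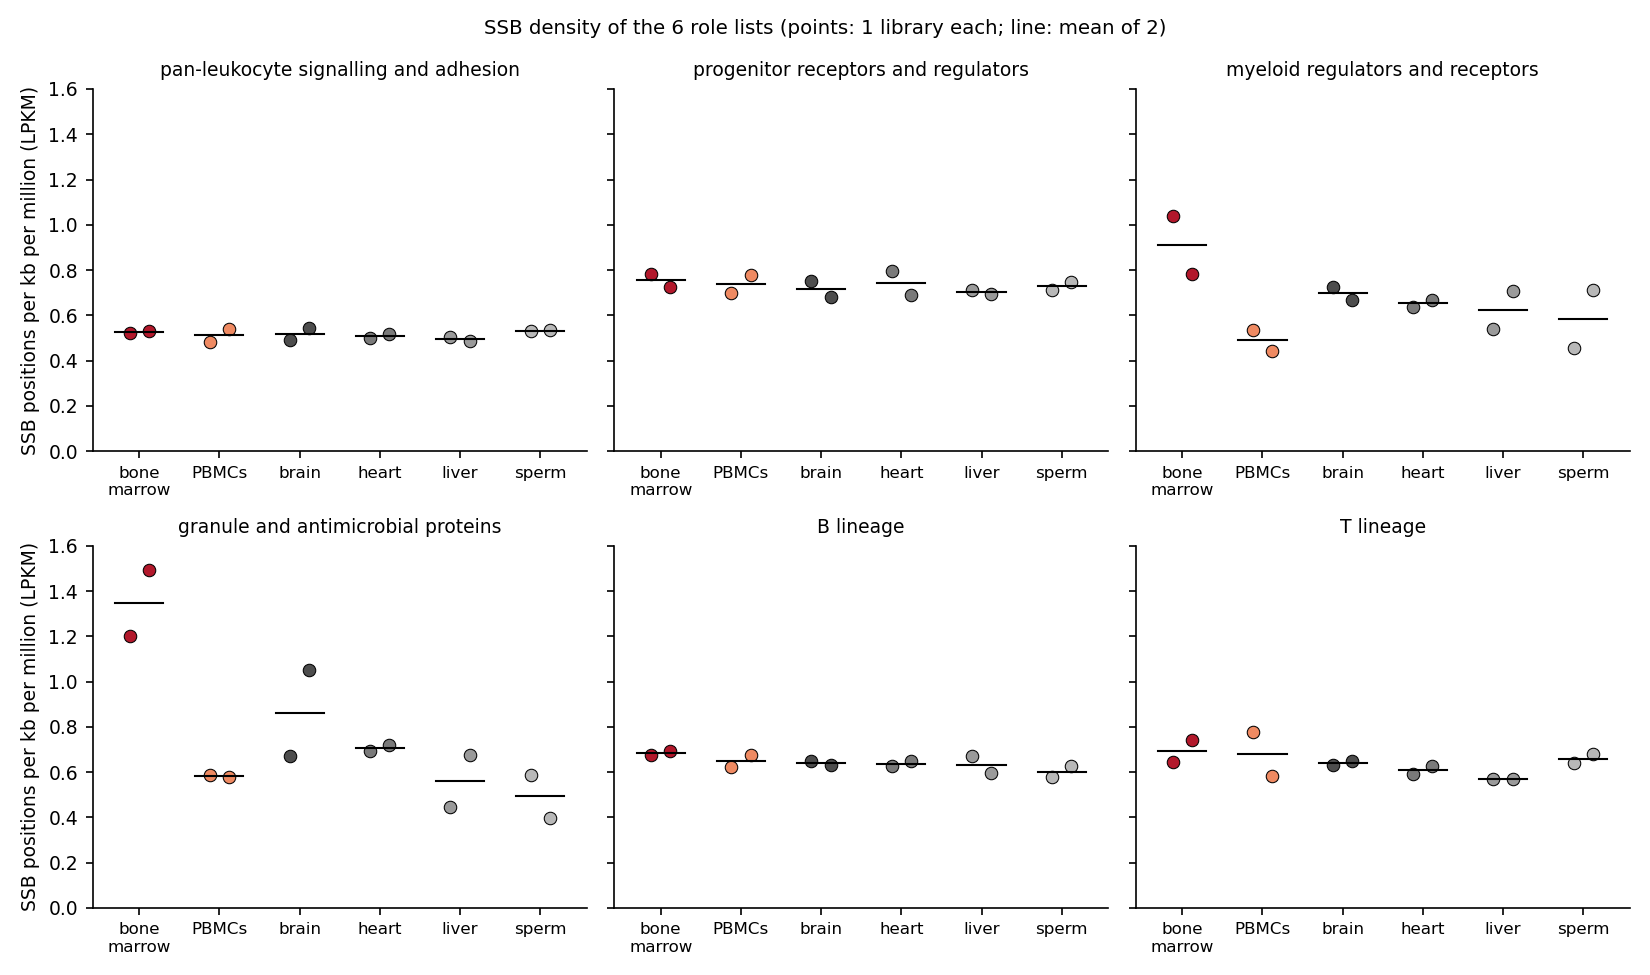
SSB density (LPKM) of the 6 role lists by tissue, with 1 point per library and a line at the mean of 2. The granule and myeloid lists have both bone marrow libraries above all others, and the other 4 lists stay between 0.484 and 0.795 in all 12 libraries.

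B lineage genes had 0.667 ± 0.030 SSB LPKM in blood and 0.628 ± 0.030 elsewhere (SD, n = 4 and 8), and 3 of 5 lay above the median of all genes. Ebf1 (chr11:44618100-45008096), an early factor of B cell commitment with the most SSBs of the list, had 0.609 and 0.641 LPKM in bone marrow and 0.661 and 0.696 in PBMCs, with 0.529 to 0.787 elsewhere. Bach2 (chr4:32238413-32586109), a repressor that shapes B and T cell differentiation, had 0.671 and 0.609 in bone marrow and 0.550 and 0.677 in PBMCs, with 0.446 to 0.703 elsewhere. Both genes stayed inside the range of the other tissues in all 4 blood libraries. Ikzf3 (chr11:98464610-98546031) had 0.509 and 0.572 in bone marrow and 0.600 and 0.883 in PBMCs, all above its median of 0.438 elsewhere. Its log2 difference was 0.59 with an SE of 0.23 (edgeR, unadjusted p = 0.0388 for the unshifted 0.47, adjusted p = 0.866). Unshifted, it was 0.28 without PBMC replicate 2 and 0.80 without sperm replicate 2. Pax5, the factor that maintains B cell identity, had 0.947 LPKM in bone marrow and 0.666 in PBMCs for SSBs, a log2 difference of 0.46 with an SE of 0.23 (edgeR, unadjusted p = 0.0430, adjusted p = 0.899).

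T lineage genes had 0.687 ± 0.090 SSB LPKM in blood and 0.619 ± 0.039 elsewhere, and 5 of 9 lay above the median of all genes. For AP sites 0 of 9 did, the fewest of any role list. Ets1 (chr9:32636241-32757820) had the most SSBs of the list and 0.950 and 1.12 LPKM in bone marrow, 0.950 and 0.565 in PBMCs, and 0.590 to 1.06 elsewhere. A PBMC library of Ets1 thus lay below all 11 others, and the other PBMC library lay in its upper range. For AP sites Ets1 had 0.759 ± 0.079 in blood and 0.863 ± 0.092 elsewhere, a log2 difference of -0.26 with an SE of 0.11 (edgeR, adjusted p = 0.9999 for the unshifted -0.23). Cd4, the coreceptor of helper T cells, had 0.648 and 1.62 LPKM in bone marrow and 1.70 and 0.833 in PBMCs, with a median of 0.633 and a highest value of 1.43, in liver, elsewhere. Its log2 difference was 0.74 with an SE of 0.34 (edgeR, adjusted p = 0.910 for the unshifted 0.63). Unshifted, that of Cd4 was 0.34 without bone marrow replicate 2 and 0.97 without bone marrow replicate 1.

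**Figure D4:**
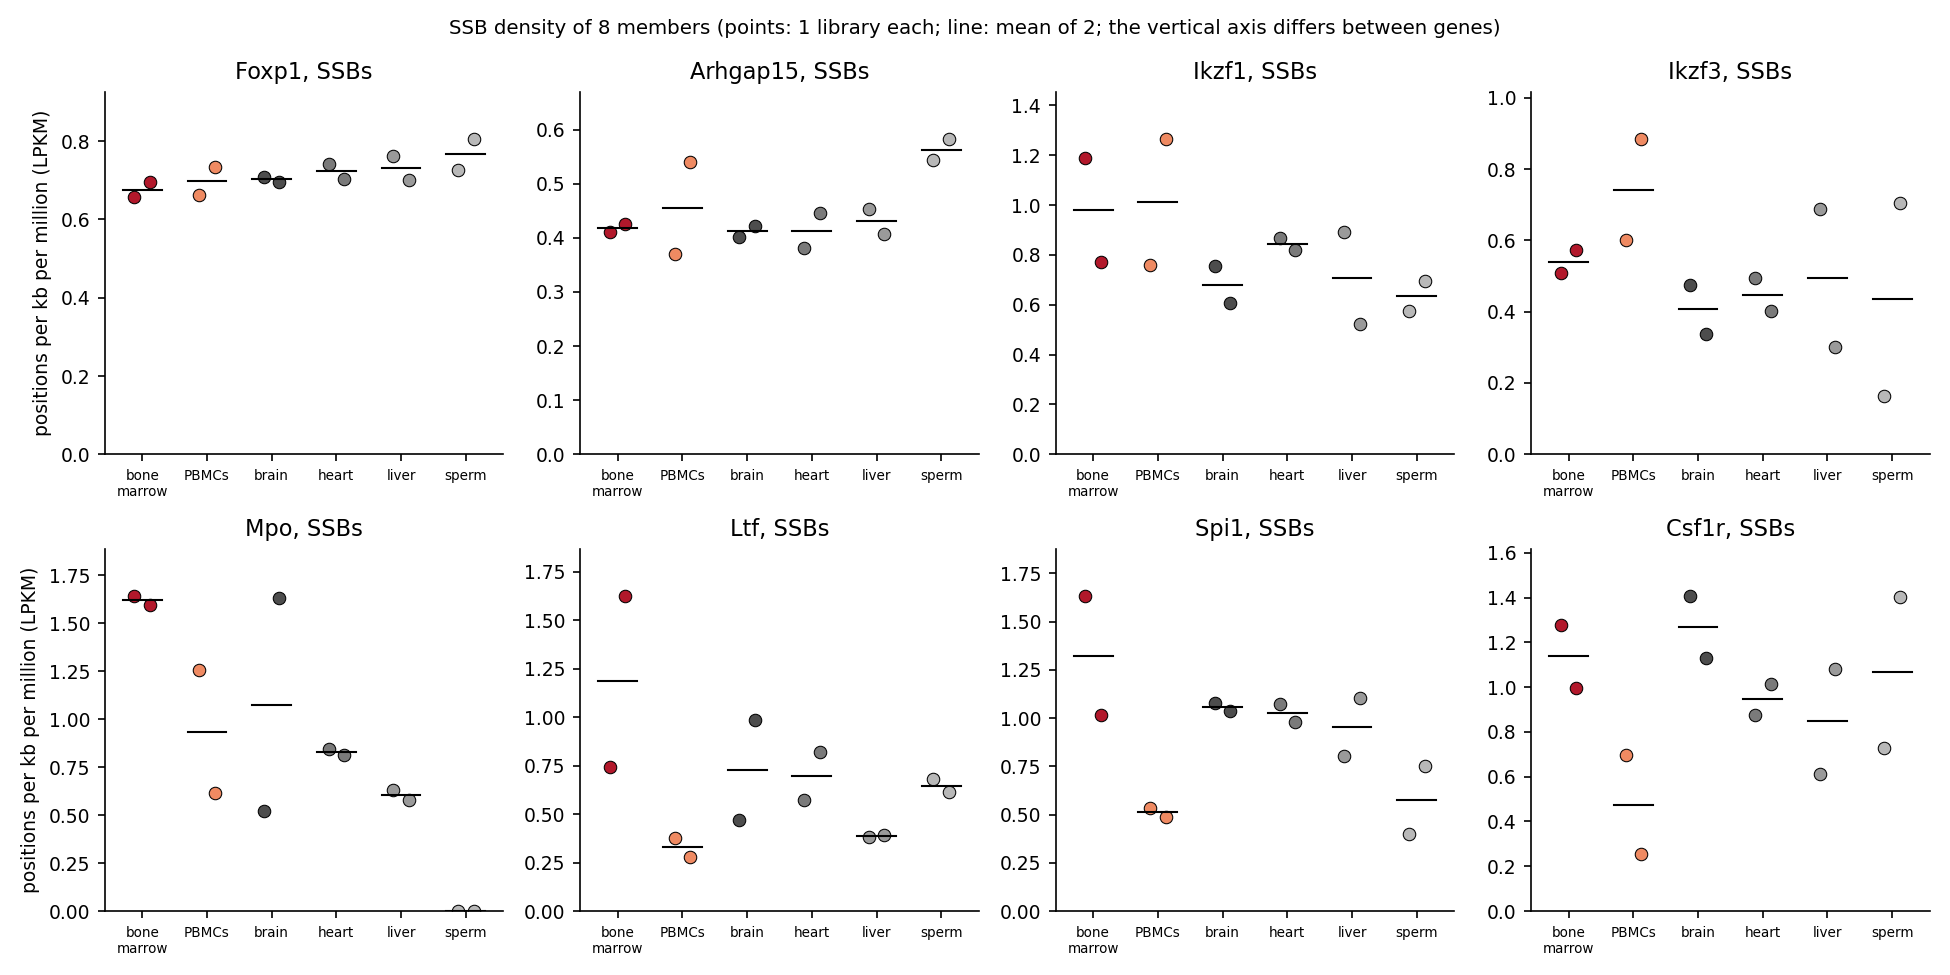
SSB density (LPKM) of 8 members by tissue, with 1 point per library and a line at the mean of 2, each gene on its own vertical axis from 0. Foxp1 and Arhgap15 are long and hold 2351 and 1582 SSB positions over the 12 libraries, while Mpo, Ltf, Csf1r and Spi1 rest on 51 to 177.

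For AP sites, 3 members had an unadjusted p under 0.05 in blood against other tissues, where 4% of all genes did. They were Ets1, Bcl11a, a repressor of fetal globin genes that B cells require, at -0.28 with an SE of 0.12, and Cebpa, the myeloid factor C/EBP alpha, which had no position in liver. In bone marrow against PBMCs, 4 members had such a p for SSBs, Spi1, Csf1r, Ltf and Pax5, each higher in bone marrow, where 2.83% of all genes were higher and 1.85% lower. For AP sites 1 member did, Ngp, a neutrophil granule protein with 16 AP positions in 12 libraries, where 3.54% of all genes did. In the difference between assays 1 member did, Mpo, where 4.95% did. Of the 66 other blood and immune genes, 0 passed the adjusted threshold. Mecom, a transcription factor of hematopoietic stem cells, had the smallest p of these 66 for SSBs in blood, with a log2 difference of -0.25 and an SE of 0.09 (edgeR, adjusted p = 0.065 for the unshifted -0.37). Runx3, a transcription factor of cytotoxic T cells, had the smallest for AP sites, with a log2 difference of 0.48 and an SE of 0.15 (edgeR, adjusted p = 0.9999 for the unshifted 0.51).

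In short members the first 10% of the gene was the part richest in SSBs, as it was in short genes at large. All short genes had 0.732 SSB LPKM there and at most 0.630 in the other 10% bins. Strand and start were known for 38 of the 46 members. The first 10% of the 24 short ones had 1.09 ± 0.21 SSB LPKM in blood and 0.863 ± 0.110 elsewhere, against 0.775 ± 0.142 and 0.711 ± 0.059 in all short genes. With bone marrow and PBMCs apart, the short members had 1.26 and 0.915 there and all short genes 0.894 and 0.656. The 14 long members had 0.684 ± 0.063 and 0.594 ± 0.047 in the first 10% and 0.640 ± 0.039 and 0.667 ± 0.069 in the last. The first 10% of all long genes had 0.476 ± 0.008 and 0.478 ± 0.004. Within 2 kb of the starts of the 38 members SSB density was 1.08 ± 0.14 in blood and 0.865 ± 0.105 elsewhere, a ratio of 1.25, against 1.08 at the starts of all genes. That 1.08 joins bone marrow at 0.912 LPKM and PBMCs at 0.658, which lay on either side of the 0.729 of the other tissues. At the members' starts bone marrow had 1.16 and PBMCs 1.01. AP density at the members' starts was 0.760 ± 0.061 in blood and 0.764 ± 0.078 elsewhere. Member by member, SSB density around the start was higher in blood in 25 of 38 genes and lower in 13. AP density was higher in 17 and lower in 21. The share over all genes was not computed, and the SSB values in blood rest on few positions, from 1 in Cd79a to 10 in Ltf. Ebf1, with the most SSB positions there, 46, had 1.48 LPKM in blood and 1.93 in the other tissues, and Bach2, the next with 35, had 1.87 and 1.74.

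**Figure D5:**
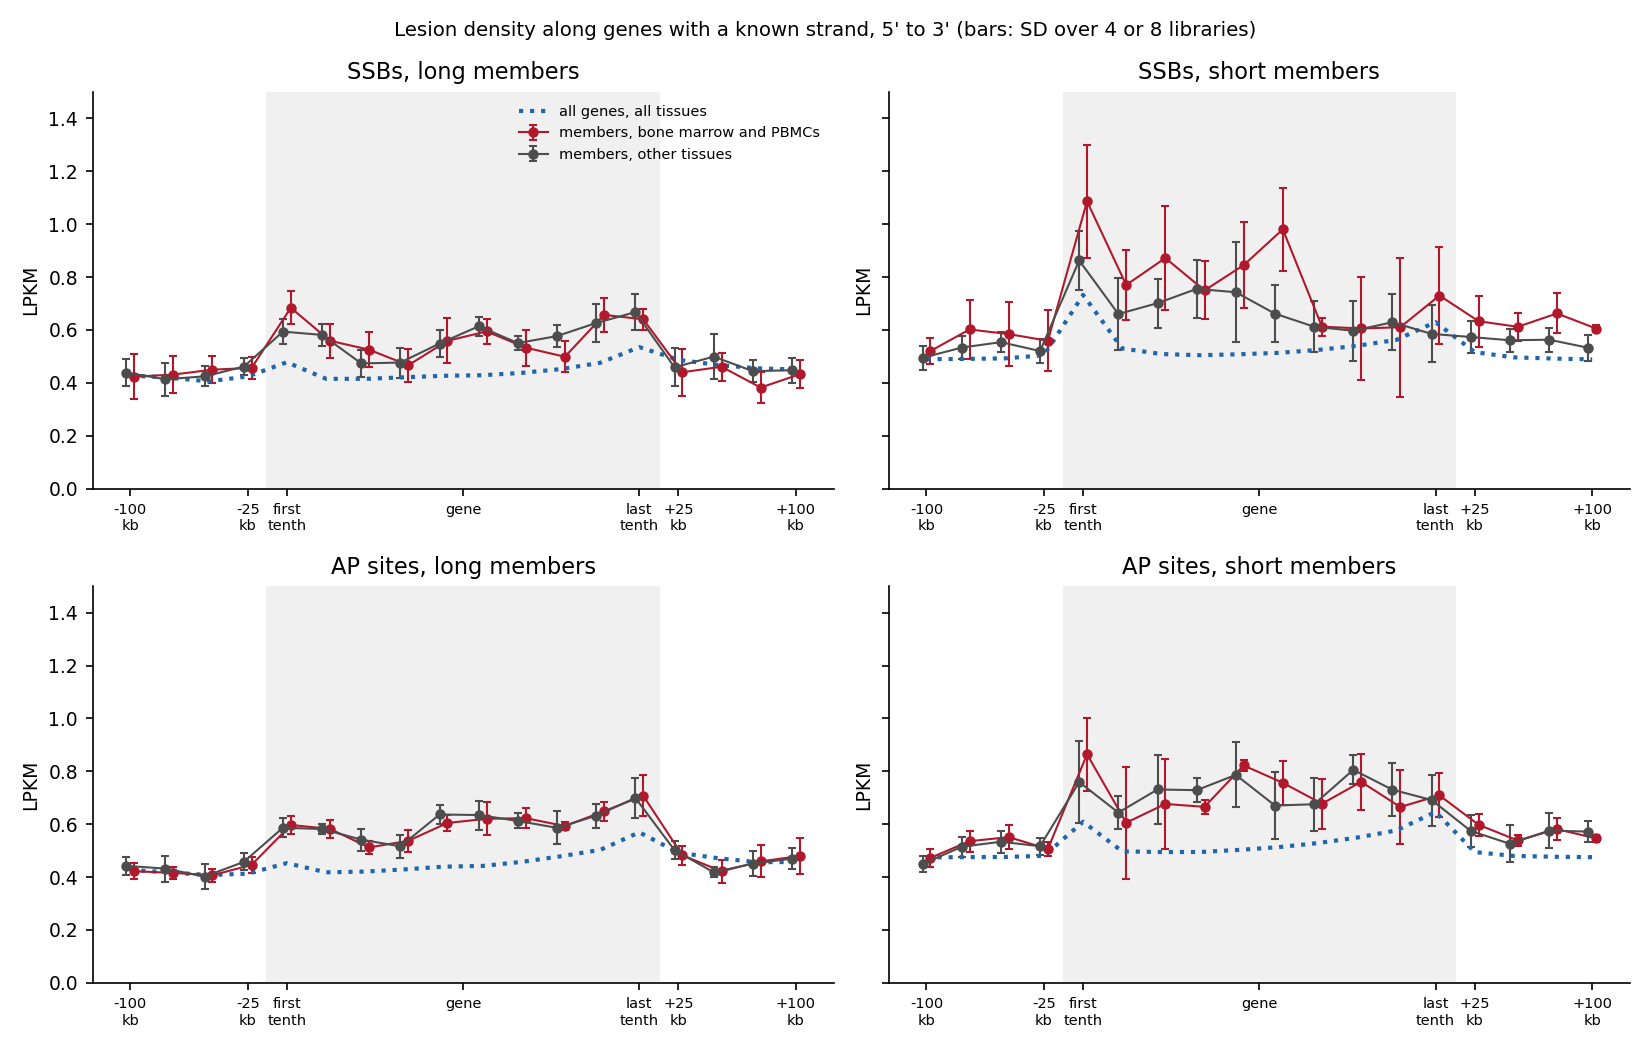
Density (LPKM) of SSBs (top) and AP sites (bottom) along 14 long (left) and 24 short (right) members, in 10 equal bins from start to end of the gene (shaded) and in bins of 25 kb up to 100 kb on both sides. Red and grey points are means over 4 blood and 8 other libraries with SD, and the blue dotted line is the mean of all genes. SSBs peak in the first 10% of short members, at 1.09 in blood and 0.863 elsewhere, and all short genes peak there too, at 0.732.

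The promoter windows of RefSeq (GRCm38.p6), from 250 bases before to 50 bases after a start, were available for these 38 members, in 58 windows, some of which overlap. With a position in overlapping windows counted once, they held 121 SSB and 149 AP positions over all libraries. SSB positions in them fell on C in 41.3% and G in 33.1% of cases and on A in 8.26%, and AP positions on G in 40.9% and A in 38.9%, counted on the strand given for the lesion. All 32851 windows, counted the same way, gave 39.0%, 35.1% and 5.58% for SSBs and 36.0% and 38.7% for AP sites. Which strand the lists record, the broken one or its partner, was not given in the sources used here. Member windows had a median GC content of 56.7% against 52.7%.

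Printed here are the window with the most SSBs (Runx1, a master regulator of hematopoietic stem cell emergence), that with the most AP sites (Flt3) and the granule gene's window with the most SSBs (Ltf), chosen after their counts were seen. Each runs 5′ to 3′ along the gene's strand, and capitals mark nucleotides at which an SSB or AP position lay in any of the 24 libraries, on either strand. They are chr16:92697280-92697579 (minus strand), chr5:147400440-147400739 (minus strand) and chr9:111019042-111019341 (plus strand).
Runx1: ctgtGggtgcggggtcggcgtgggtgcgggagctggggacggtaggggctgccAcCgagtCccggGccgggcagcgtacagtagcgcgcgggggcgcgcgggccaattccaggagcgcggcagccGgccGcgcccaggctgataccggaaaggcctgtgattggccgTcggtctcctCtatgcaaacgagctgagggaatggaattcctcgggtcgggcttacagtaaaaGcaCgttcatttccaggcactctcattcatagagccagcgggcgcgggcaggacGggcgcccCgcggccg
Flt3: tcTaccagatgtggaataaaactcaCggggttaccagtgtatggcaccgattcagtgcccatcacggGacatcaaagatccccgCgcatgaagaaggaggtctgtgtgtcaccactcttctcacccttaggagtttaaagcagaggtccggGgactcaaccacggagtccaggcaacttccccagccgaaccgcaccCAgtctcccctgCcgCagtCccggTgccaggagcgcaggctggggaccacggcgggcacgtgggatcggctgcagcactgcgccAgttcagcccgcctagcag
Ltf: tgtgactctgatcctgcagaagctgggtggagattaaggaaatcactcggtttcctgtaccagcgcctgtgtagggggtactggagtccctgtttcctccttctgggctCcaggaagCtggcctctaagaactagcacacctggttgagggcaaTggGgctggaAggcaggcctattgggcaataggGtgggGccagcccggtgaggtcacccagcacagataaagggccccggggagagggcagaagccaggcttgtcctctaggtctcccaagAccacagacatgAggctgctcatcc
The Runx1 window, with 69.0% GC, had 10 SSB positions in 5 libraries, 4 of them in bone marrow, none in PBMCs, 3 in brain, 2 in liver and 1 in heart. Its 4 AP positions came from 4 libraries. The SSB and AP positions fell on 13 different nucleotides, and 1 of these recurred in more than 1 library. The Flt3 window had 10 AP positions in 6 libraries, 7 of them from blood, and 2 SSB positions, and its 12 lesion nucleotides were each hit in 1 library only. The Ltf window had 5 SSB positions in 3 libraries, 1 of them from blood, and 4 AP positions in 3 libraries, 2 from blood, on 9 nucleotides of which 0 recurred.

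The strand of the lesions was close to that in genes at large. SSB positions lay on the gene's own strand, as the lists give strand, in 53.2% ± 1.57 of cases in the 38 members (SD over 12 libraries) and in 53.6% ± 0.897 in all 27025 genes with a known strand. AP positions did so in 50.8% ± 0.899 of cases in members.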

How the data were processed

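Per the labels, SSBs and AP sites were mapped in the same tissue samples, and the authors deposited for each library a list of lesion sites at 1 nucleotide each, with their strand and raw read counts, not normalized and not pooled. The aligner and filters were not given in the sources used here, and the submitters' processing notes name mm10, GRCm38 and RSEM 1.2.28. Each position was counted once per library, on both strands, over the whole span of each RefSeq gene of GRCm38.p6, because the annotation used here holds no exons. A position in overlapping genes was counted for each. LPKM is positions × 1e+09 over the product of the length of the gene (bp) and the number of positions in that library.

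Genes with a position in at least 20% of the libraries of an assay were tested with edgeR 4.0.16 in R 4.3.3 (quasi-likelihood test on the deposited counts of positions, TMM scaling, library sizes set to the number of positions, adjustment by Benjamini-Hochberg at a threshold of 0.05). The 6 tissues formed the groups of the fit of each assay, and blood was the mean of 2 tissues against the mean of 4. The difference between assays was fitted on all 24 libraries, with each combination of assay and tissue as a group. That fit had no term for the tissue sample that both assays shared. The test returns no SE, so an SE is the size of the unshifted log2 difference over the square root of the F statistic. DESeq2 1.42.0, library totals alone, other filters, summed counts, thinned libraries, a replicate block, and fits without a tissue or a replicate were alternatives. Set densities, promoters and profiles were computed in Python 3.11.15 (numpy 2.4.6, pandas 2.3.3) and drawn with matplotlib 3.10.9. The tests were tested on simulated data.

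The members and lists were chosen with earlier results of these data known. All 46 genes were accounted for. Values by library were given for the 6 longest genes, for any gene past the adjusted threshold, and, in each role list, for the gene with most SSB positions and that with the smallest p for SSBs in blood. Of other blood genes, those past the threshold or with the smallest p were named. The labels state that 2 mice provided the tissues but not which, so p-values measure the spread between these samples. Shares and densities cover counting error only where a limit is given, and depth was 225011 to 1041983 SSB and 460719 to 963258 AP positions.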

Additional observations from a re-analysis of the deposited data

Results flagged for a closer look

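Each of the 6 role lists and the long, short and complete sets of members was examined in the 4 blood and the 8 other libraries of each assay, 36 groups in all, for a sample standing apart from its group (Dixon's 95% limit, which chance passes in about 1 in 20 groups). 1 value passed. The AP density of the progenitor receptors and regulators was 0.626 LPKM in liver 1, on 367 positions, while the next lowest of the 8 other libraries stood at 0.739. Foxp1 and Runx1 hold most of that list's span, and both had their lowest AP mean in liver, at 0.697 and 0.623 LPKM.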

How the results depend on the processing

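The number of members called was 0 in each of the 5 tests under each alternative run, and the smallest adjusted p of a member was 0.365 (Ikzf1, SSBs in blood, with a position required in at least 80% of the libraries). The number of all genes called for SSBs in blood, 45, was less stable: 0 by DESeq2, 5 by library totals, 29 with the 80% filter, 28 without a filter, 11 with summed counts, 0 with thinned libraries, 4 without sperm, 0 without bone marrow and 105 without PBMCs, and 3 to 45 without 1 replicate, 3 being without bone marrow replicate 1. For bone marrow against PBMCs it was 1, with 0 by DESeq2, 3 with the 80% filter, 3 with thinned libraries and 0 to 1 without 1 replicate. For the difference between assays it was 0, with 2 by summed counts, 1 without PBMCs and 0 to 4 without 1 replicate. AP calls stayed at 0 in both comparisons under each alternative run. The causes of these changes were not tested.

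With a replicate block, SSB calls in blood were 53 and no call of a member changed. Mecom, which is no member, had an adjusted p of 0.046 with the block, 0.006 without PBMCs and 0.035 without liver replicate 2, but 0.901 with thinned libraries and above that without bone marrow and by DESeq2. Same-numbered libraries of different tissues showed correlations of their deviations of -0.034 to 0.022 for SSBs and -0.19 to 0.13 for AP sites, so the block rests on the number alone.

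The ratio of blood to other tissues stayed within its replicate spread under each alternative in long members for both assays and in short members for AP sites. In short members for SSBs it was 1.16, with 1.04 when divided by the flanks, and 1.12 to 1.19 without 1 replicate. Log2 differences of members for SSBs in blood, unshifted, changed sign as follows. With library totals Bach2 stood at 0.13, Ets1 at 0.13, Dock2 at 0.0028, Ebf1 at 0.039 and Elmo1 at 0.011. Bach2 was 0.063 and Ets1 0.094 by DESeq2, 0.031 and 0.035 with the 80% filter, 0.0026 and 0.0089 without a filter, 0.031 and 0.027 with summed counts, and 0.0031 and 0.036 with thinned libraries. Ets1 was 0.015 with the replicate block, 0.093 without sperm and 0.17 without PBMCs. Ltf was 0.12 with thinned libraries, and without PBMCs Ltf was 0.54, Spi1 0.51 and Csf1r 0.021. Without 1 replicate, Bach2 ran from -0.12 to 0.15, Ets1 from -0.17 to 0.17 and Ltf from -0.47 to 0.070. Depth limits the short members, of which 11 had at least 1 SSB library without a position.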
